A study of Oryza sativa with 12 samples.

Results

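Leaf primordia of rice (Oryza sativa) labelled as lacking the kinase OsPID were compared directly with leaf primordia labelled as lacking the auxin carriers OsPIN1c and OsPIN1d. The 9 libraries were chosen by their titles, out of 12 in the series: 3 of ospid C1, 3 of ospid C2 and 3 of ospin1c ospin1d. ospid C1 and ospid C2 are separate lines that both carry the genotype label OsPID knockout, and the difference reported is the mean of the 2 line means minus the mean of ospin1c ospin1d, which carries the label OsPIN1c and OsPIN1d knockout. The 3 libraries of the cultivar Nipponbare (WT) stayed outside the test, and their levels are given as the control. The labels name a single source of ospin1c ospin1d, so any effect of losing the carriers cannot be told apart from what else that line carries. In the same way, an effect of losing the kinase cannot be told apart from anything else that ospid C1 and ospid C2 share. The labels do not say how many plants were pooled or whether replicates came from separate plants. The p-values therefore measure the spread between these libraries, which may be technical.

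Auxin moves through plant tissue from cell to cell. PIN proteins sit on particular sides of the cell and export it, so their position sets the direction of flow. PINOID-type kinases, best studied in Arabidopsis, phosphorylate PIN proteins and influence the side on which they sit and their activity. Auxin maxima made by this flow mark where leaf primordia and their veins form.

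The tables held FPKM values, fragments scaled by gene length and library size. The 9 libraries had 15211547 to 16422849 reads by the step size of their FPKM values, and 1 read in a gene of 1 kb is worth 0.0609 to 0.0657 FPKM. Of 32552 identifiers, the 20835 that reached 1 FPKM in 3 or more of the 9 libraries were tested. Of all identifiers, 1 matched the available table of rice genes, it was not among those tested, and no gene names or functions are given. For the same reason the targeted genes are not reported, and neither the genotype labels nor the tissue label were checked against known genes. In bulk tissue, fewer cells of a type and less RNA per cell cannot be told apart. The lowest correlation of a library with another of its own group, on the log2(FPKM + 1) scale, was 0.959, between replicates 1 and 3 of ospid C2. Replicate 1 of ospid C2 also had the lowest median-ratio factor (a measure of how high the typical gene stands in a library), at 0.898, and the highest share of its FPKM sum in its 100 most abundant identifiers, at 26.2%. Replicate 1 of ospid C1 lay at the other end with a factor of 1.15 and a share of 20.5%. The factors were 0.939 to 0.964 in ospin1c ospin1d.

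The ospid lines and ospin1c ospin1d were separated by a broad set of mostly modest differences and a small set of very large ones. By limma on log2(FPKM + 1) with Benjamini-Hochberg adjusted p under 0.05, 3439 genes differed (16.5% of those tested), 2099 higher (10.1%) and 1340 lower (6.43%) in the ospid lines. Because the median gene was 0.097 higher in the ospid lines on the log2 scale as deposited, the test was repeated with median-ratio scaling, where that median was -0.0018. This called 3552 genes (17.0%), 1671 higher (8.02%) and 1881 lower (9.03%). The share of calls that were higher thus went from 61.0% to 47.0%, and the balance between higher and lower genes depends on the scaling. Genes called in the same direction under both scalings numbered 2932 (14.1%), 1608 higher (7.72%) and 1324 lower (6.35%), and the descriptions that follow are of these unless stated.

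The median size of their difference was 0.688 on the log2 scale, with a median SE of 0.150, against 0.249 for all genes tested. At a log2 difference of at least 1, lower genes outnumbered higher ones, with 412 (1.98%) against 280 (1.34%), and at 2 or more there were 82 (0.394%) against 59 (0.283%). Differences of 4 or more numbered 12 lower (0.0576%) and 14 higher (0.0672%). The direction also varied with level: among genes at 100 FPKM or more on average, 4.69% were higher and 9.88% lower in the ospid lines, and among genes at 5 to 20 FPKM 9.76% were higher and 6.39% lower. No test was made of these shares. The 6 ospid libraries lay wholly above the 3 ospin1c ospin1d libraries for 1393 of the 1608 higher genes (6.69% of all tested), and wholly below them for 1139 of the 1324 lower genes (5.47%). Over all genes tested, called or not, such separation was seen for 2894 above (13.9%) and 1619 below (7.77%), and these counts include the called genes. The calls were made on the same libraries, so little overlap among called genes was likely beforehand.

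**Figure D1:**
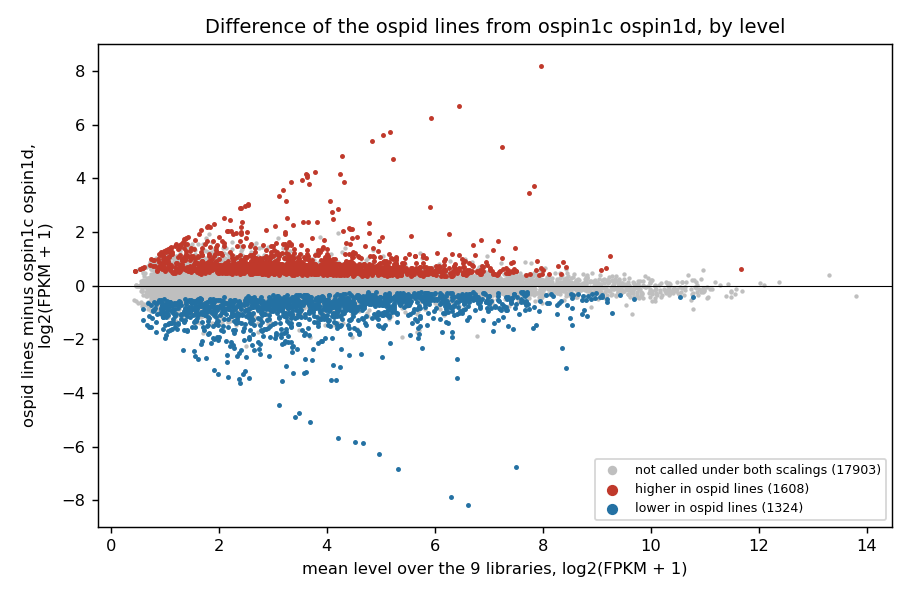
Each point is a tested gene, with its mean level over the 9 libraries on the x axis and the ospid minus ospin1c ospin1d difference on the y axis, both on the log2(FPKM + 1) scale. Coloured points were called under both scalings (1608 higher, 1324 lower), and the largest differences lie far outside the cloud of uncalled genes.

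Among identifiers starting with Os, the largest positive difference belonged to Os01g0537250, a feature of at least 1191 bases. It stood at 319, 405 and 348 FPKM in ospid C1 and at 418, 377 and 368 FPKM in ospid C2. In ospin1c ospin1d it was at 0, 0.0542 and 0.979 FPKM, and in WT at 0, 0 and 0.154 FPKM. Every ospid library was far above every other library, and the difference was 8.19 on the log2 scale (SE 0.202, adjusted p = 2.49e-08 by limma). Os03g0629800, of at least 1064 bases, followed the same pattern. Its level over the 6 ospid libraries was 130 ± 12.6 FPKM (SD, n = 6). It stood at 0, 0.303 and 0.577 FPKM in ospin1c ospin1d and was listed at 0 in the 3 WT libraries, a difference of 6.68 (SE 0.138, adjusted p = 7.55e-09 by limma). For these identifiers it was the kinase lines that departed from WT.

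The largest negative differences among Os identifiers were in those that stood high in ospin1c ospin1d. Os03g0426350 spans 946 bases or more and was at 113, 110 and 126 FPKM there. In the ospid lines it was listed at 0 in 5 of 6 libraries and stood at 0.139 FPKM, from 2 reads, in replicate 3 of ospid C2. WT lay between, at 0.947, 6.86 and 0.646 FPKM, above every ospid library. The difference was -6.84 on the log2 scale (SE 0.108, adjusted p = 1.82e-09 by limma). Os01g0348900, spanning 684 bases or more, had 52.2, 167 and 1400 FPKM in ospin1c ospin1d, a wide spread between its replicates. The ospid libraries held 1.19 ± 0.338 FPKM (SD, n = 6) and WT 7.02, 1.43 and 0.804 FPKM. All 3 ospin1c ospin1d libraries were still above the other 9, and the difference was -6.75 (SE 0.799, adjusted p = 0.00144 by limma), with an SE several times that of the preceding identifiers. It was -5.45 without replicate 3 of ospin1c ospin1d and -7.81 without replicate 1.

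**Figure D2:**
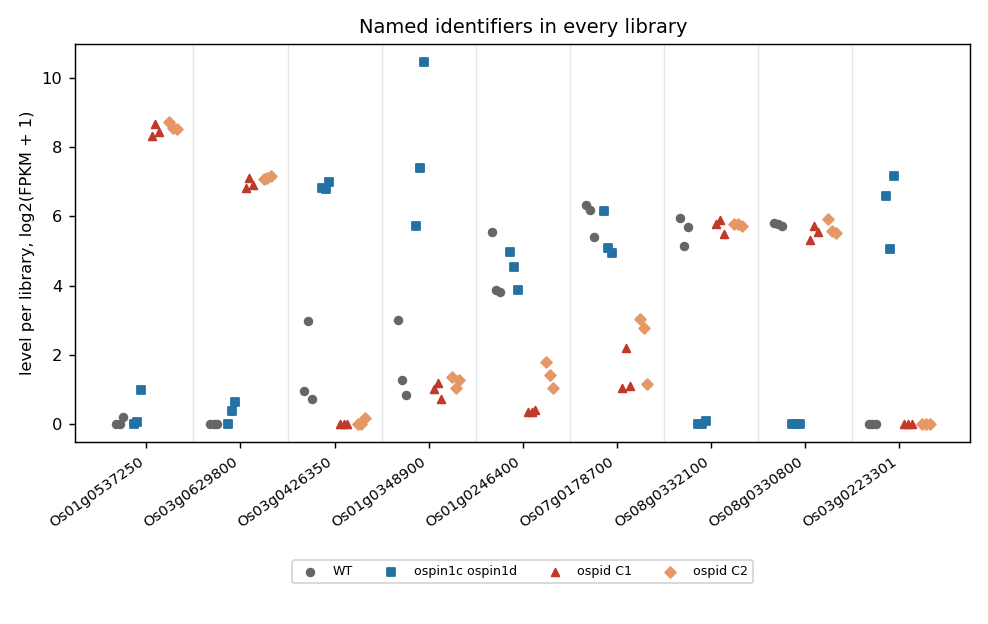
Level of each named identifier in every library, as log2(FPKM + 1) on the y axis, with 3 libraries per group. Os01g0537250 and Os03g0629800 are high in the 6 ospid libraries alone, and Os08g0330800 and Os08g0332100 are at or near 0 in the 3 ospin1c ospin1d libraries alone.

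Which mutant had moved away from WT was then described for the 1393 higher and 1139 lower genes whose libraries did not overlap. WT was outside the test that chose them, and no test was made of these counts. Among the higher genes, the 3 WT libraries overlapped ospin1c ospin1d and lay apart from all 6 ospid libraries in 458 (32.9%). They overlapped the ospid lines and lay apart from ospin1c ospin1d in 326 (23.4%). With median-ratio scaling over the 12 libraries these counts came to 422 and 415, so the excess on the kinase side nearly vanished for higher genes. Among the lower genes WT lay with ospin1c ospin1d in 443 (38.9%) and with the ospid lines in 286 (25.1%). Under median-ratio scaling the counts were 489 and 246, so by these classes the kinase lines were more often apart from WT. The classes are not on an equal footing, since WT had to lie apart from 6 ospid libraries but from only 3 of ospin1c ospin1d. Over all genes tested the shares were 10.8% with ospin1c ospin1d and 13.7% with the ospid lines. For 67.8% of genes WT overlapped both mutants or its farther group. The WT mean was nearer ospin1c ospin1d in 69.1% of the higher and 66.8% of the lower genes, against 62.6% of all tested. Under median-ratio scaling these shares were 59.0%, 70.9% and 60.4%, so only the lower genes stood above all genes under both scalings.

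Among the largest differences the order turned on the deposited scale, by small counts. There were 54 higher genes with a log2 difference of at least 2. WT lay with the ospid lines in 25 of them (46.3%) and with ospin1c ospin1d in 21 (38.9%). Of 78 such lower genes, WT lay with the ospid lines in 37 (47.4%) and with ospin1c ospin1d in 27 (34.6%). The ospid side was also the larger over all genes tested (13.7% against 10.8%). These classes were not counted at this size with median-ratio scaling. The WT mean was nearer ospin1c ospin1d in 46.3% of the 54 under either scaling, and in 41.0% and 43.6% of the 78. Of all 1393 higher and 1139 lower genes without overlap, WT stood between both mutants, apart from each, in 118 and 44 (8.47% and 3.86%). Over all genes tested this share was 0.878%, but choosing genes whose mutants do not overlap favours that class. WT lay beyond either mutant in 52 and 91 (3.73% and 7.99%), against 6.8% of all tested. Under median-ratio scaling the counts were 127 and 54 between, and 59 and 90 beyond.

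**Figure D3:**
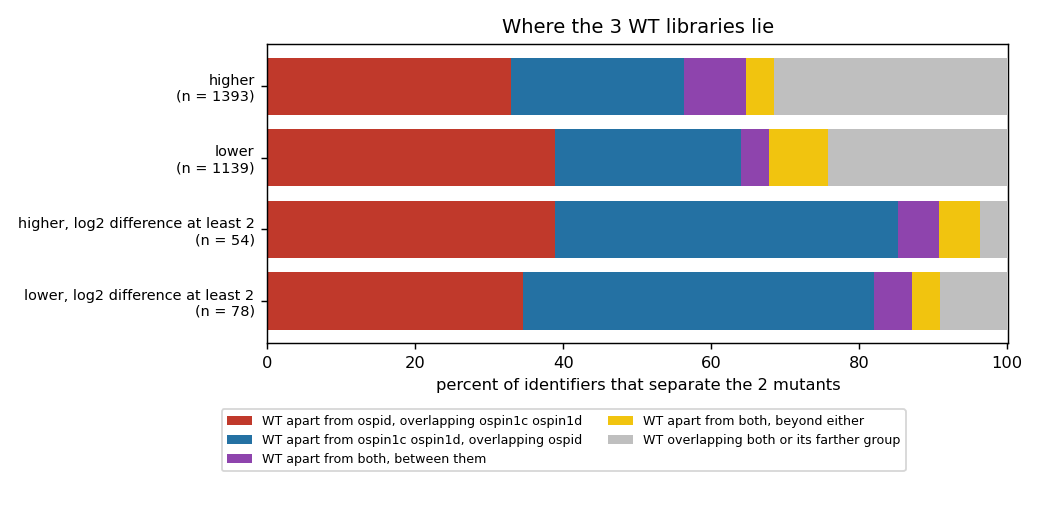
Share of the separating identifiers (x axis, percent) by where the 3 WT libraries lie, for higher and lower calls and for those with a log2 difference of at least 2. Red marks WT apart from the ospid lines (32.9% and 38.9% in the upper bars) and blue marks WT apart from ospin1c ospin1d (46.3% and 47.4% in the lower bars); grey holds identifiers whose WT libraries overlap both mutants or only the group farther from the WT mean.

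Identifiers with the largest differences in each of these classes were taken after their values were seen. Where WT lay with the ospid lines, the largest losses in ospin1c ospin1d were on chromosome 8. Os08g0332100 held 52.8 ± 4.91 FPKM over the 6 ospid libraries (SD, n = 6), and WT held 61.2, 34.6 and 50.7 FPKM. In ospin1c ospin1d it was at 0, 0 and 0.0787 FPKM, a log2 difference of 5.71 (SE 0.105, adjusted p = 3.15e-09 by limma). Os08g0330800, close to it in the order of identifiers, held 48.0 ± 7.05 FPKM over the 6 ospid libraries (SD, n = 6) and 53.5 ± 1.75 in WT (SD, n = 3). All 3 libraries of ospin1c ospin1d list it at 0 (adjusted p = 1.17e-08 by limma). Both lie within the same 20 neighbouring tested identifiers, at 41.3% to 42.8% of the way along chromosome 8. Among those 20, 5 were at least 1 higher on the log2 scale in the ospid lines and none lower. WT was nearer to the ospid lines for all 5. Gains in ospin1c ospin1d included Os01g0348900, described above, and Os03g0223301, whose order by size changed with a pseudocount of 0.1 and by voom. Os03g0223301 was at 95.2, 32.5 and 144 FPKM in ospin1c ospin1d and listed at 0 in the 6 ospid and 3 WT libraries (adjusted p = 1.90e-05 by limma). A group at 0 throughout shows no spread, so these p-values may be too small.

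Where WT lay with ospin1c ospin1d, the largest gains in the kinase lines among Os identifiers were Os01g0537250 and Os03g0629800. The largest losses were smaller in size and less even. Os01g0246400 was at 45.8, 13.6 and 13.2 FPKM in WT and 30.3, 22.2 and 13.7 FPKM in ospin1c ospin1d. It stood at 0.271, 0.272 and 0.341 FPKM in ospid C1 and at 2.46, 1.70 and 1.05 FPKM in ospid C2, so that both lines were low and ospid C1 the lower (log2 difference -3.56, SE 0.242, adjusted p = 5.02e-05 by limma). Os07g0178700 was at 64.6 ± 20.2 FPKM in WT and 44.4 ± 22.7 in ospin1c ospin1d (SD, n = 3 each). The ospid libraries ranged from 1.08 to 7.21 FPKM, below all 6 of those (log2 difference -3.50, SE 0.461, adjusted p = 0.00235 by limma).

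Some identifiers were read on one side and absent from the other. Of all 32552 identifiers, 31 were at 1 FPKM or more in all 6 ospid libraries and at 0 in all 3 of ospin1c ospin1d. Of them 25 start with Os, and group means over the 31 were 1.37 to 48.0 FPKM. WT was above 0 in all 3 libraries for 22 of the 31 and at 0 in all 3 for 3, so most were read in WT. In the reverse direction there were 17 identifiers, 7 of which start with Os, with means of 1.51 to 292 FPKM in ospin1c ospin1d. For 14 of these WT was also listed at 0 in all 3 libraries, and for 2 it was above 0 in all 3. In both directions WT was thus more often on the side of the ospid lines, but no share over other identifiers was worked out to set beside this. The 2 counts are not on an equal footing, since the first asks for 0 in 3 libraries and the second for 0 in 6. The 17 have a median length of 118 bases, so a 0 in WT says little where reads are few. For the shortest features a value rests on as little as 1 read in a library.

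Identifiers starting with Os carry their chromosome number and, in order, their place on it. Large differences were not spread evenly. At a log2 difference of at least 1, 224 of 19406 tested Os identifiers were higher in the ospid lines (1.15%) and 388 lower (2.00%). On chromosome 11, 33 of 1004 were higher (3.29%) and 9 lower (0.896%), and on chromosome 8, 36 of 1311 were higher (2.75%) and 15 lower (1.14%). On the other chromosomes the share that was higher ran from 0.528% to 1.72%, the latter on chromosome 12, where 0.670% were lower. Of the 25 Os identifiers listed at 0 in ospin1c ospin1d alone among the mutants, 7 lay on chromosome 8, 7 on chromosome 4 and 4 on chromosome 11. Chromosome 4 holds 1704 of the 19406 tested. Of these, 1.23% were higher by at least 1 on the log2 scale, near the 1.15% over all chromosomes. In the reverse direction, 2 of 7 Os identifiers lay on chromosome 4. The others lay 1 each on chromosomes 2, 3, 5, 8 and 9. No test was made of these counts.

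**Figure D4:**
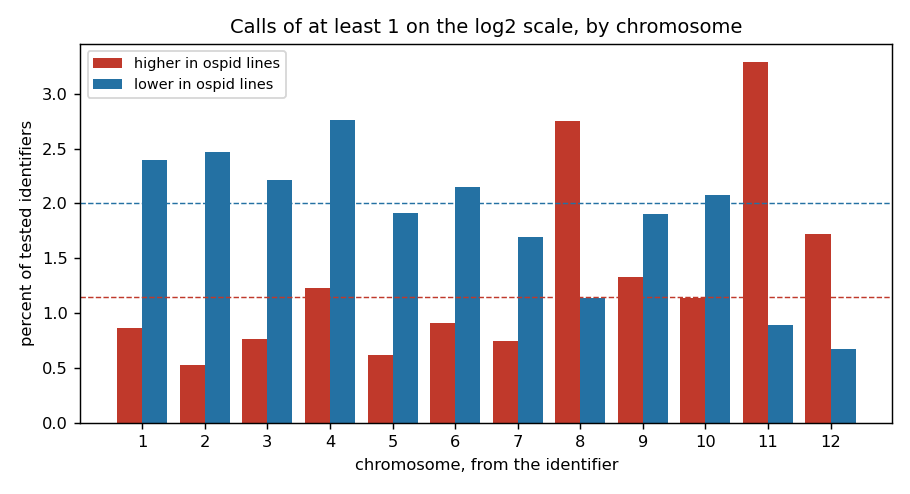
Percent of tested Os identifiers (y axis) called under both scalings with a log2 difference of at least 1, by chromosome (x axis), with dashed lines at the values over all chromosomes (1.15% higher, 2.00% lower). Chromosomes 8 and 11 reach 2.75% and 3.29% for higher calls, where the other chromosomes reach at most 1.72%.

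The excess on chromosomes 8 and 11 lay partly in short stretches. In windows of 20 neighbouring tested identifiers, the fullest held 13 that were at least 1 higher on the log2 scale in the ospid lines and none that were lower. It lay near the end of chromosome 11, from 95.7% to 97.7% of the way along its tested identifiers. The libraries of the compared groups did not overlap for any of the 13, which differed by 1.02 to 5.39 with a median of 1.35. The 13 were chosen as called and at least 1 higher on these same libraries, so separation from ospin1c ospin1d was likely beforehand. Summed over the 13, the level was 67.7, 97.7 and 36.2 FPKM in ospin1c ospin1d. The sum was 271, 273 and 271 FPKM in ospid C1 and 283, 280 and 276 FPKM in ospid C2. In WT it was 288, 210 and 225 FPKM, so the 3 ospin1c ospin1d libraries lay below all 9 others. WT was nearer to the ospid lines for all 13, and 5 of them were listed at 0 in ospin1c ospin1d. The other 7 identifiers of the window were not called in either direction and had a median difference of 0.28.

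The next fullest window, with 8 such identifiers, lay at 52.8% to 54.3% of chromosome 8. Its 8 identifiers summed to 7.83, 6.01 and 6.74 FPKM in ospin1c ospin1d. The ospid libraries held 45.0 to 54.0 FPKM and the WT libraries 42.9 to 50.3 FPKM, again with ospin1c ospin1d alone low. The compared libraries did not overlap for any of the 8, and of the other 12 identifiers of that window 2 were called higher and 1 lower. WT was nearer to the ospid lines for 7 of the 8, and 4 were listed at 0 in ospin1c ospin1d. Among windows of lower genes the fullest held 6, on chromosome 2 at 82.7% to 83.6%, and here the kinase lines were the ones farther from WT. Its 6 identifiers summed to 886, 891 and 579 FPKM in ospin1c ospin1d and 793 to 963 FPKM in WT, against 224 to 544 FPKM in the ospid libraries. Replicate 3 of ospin1c ospin1d, at 579, thus lay close to the highest ospid library. The median of the 6 was 22.2 FPKM in ospin1c ospin1d, 18.4 in WT and 5.24 in the ospid lines, so the sums rest mostly on the more abundant members. WT was nearer to ospin1c ospin1d for all 6. The compared libraries did not overlap for 5 of the 6, and 1 of the other 14 identifiers was called in the opposite direction. The windows were chosen for their counts, and no test was made of them. Their called identifiers were chosen on the same libraries, so little overlap between the compared groups was likely beforehand. A value of 0 says that no reads were assigned to an identifier, and whether the gene itself is present and unaltered in that line was not tested.

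**Figure D5:**
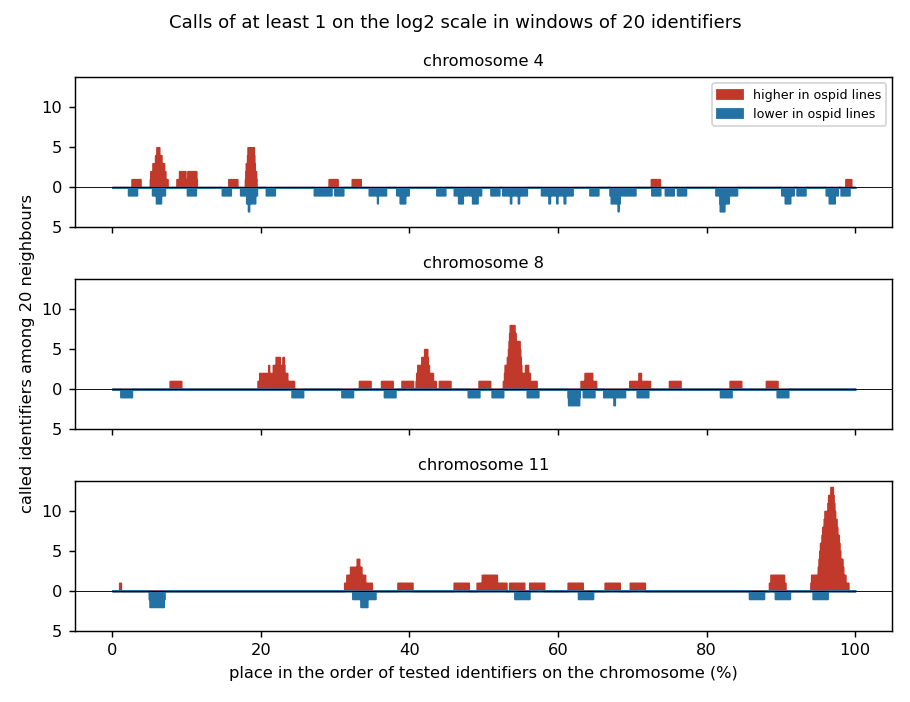
Number of identifiers among 20 neighbours (y axis, higher calls upward and lower calls downward) along the order of tested identifiers on chromosomes 4, 8 and 11 (x axis, percent). The tallest peak, of 13, stands near the end of chromosome 11, and the peak of 8 near the middle of chromosome 8.

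The kinase lines were also set against ospin1c ospin1d separately, and the counts were unequal. By limma, ospid C1 alone differed from ospin1c ospin1d in 3274 genes (15.7%), 2247 higher (10.8%) and 1027 lower (4.93%). ospid C2 alone differed in 1519 (7.29%), 575 higher (2.76%) and 944 lower (4.53%). These comparisons share the ospin1c ospin1d libraries. They were made on the deposited scale only, and the balance of higher and lower genes depends on the scaling. Median-ratio factors were 1.035 to 1.152 in ospid C1 and 0.898 to 1.079 in ospid C2. Of the 2932 genes called under both scalings in the mean of the lines, 2361 (80.5%) were called in the same direction in ospid C1 alone and 1330 (45.4%) in ospid C2 alone. Those genes were chosen on the mean of both lines, so the counts are a description. The lines themselves were set against each other in the same fit. There 1 gene (0.00480%) differed with adjusted p under 0.05 by limma, while 2175 (10.4%) had an unadjusted p under 0.05, and voom on the recovered reads called 0. Among the named identifiers, Os01g0246400 was 1.05 higher in ospid C2 than in ospid C1 on the log2 scale, which did not pass the threshold (adjusted p = 0.289 by limma).

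The number of calls changed strongly when single libraries were left out. Each omission also removed a replicate from its group, which cannot be told apart from an effect of the library itself. Without replicate 2 of ospin1c ospin1d, 920 genes were called, and 881 of the 2932 (30.0%) were still called in the same direction; without replicates 1 and 3 the counts were 1363 and 1339. Without replicate 1 of ospid C2 the count rose to 5226, and without replicate 2 of ospid C2 it fell to 1980. None of those of the 2932 that were still tested changed direction when a library was left out. Before adjustment, 7251 genes (34.8%) had a p under 0.05 in the comparison of the mutants.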

How the data were processed

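RNA sequencing of leaf primordia was made from 2 µg of total RNA per library with a NEBNext Ultra kit, per the labels. Each library has its own table, in which the authors deposited FPKM per identifier, per the file headers. Listed in the submitters' processing notes, with no role given, are HISAT2 2.1.0, Bowtie2 2.2.3 and HTSeq 0.6.0, and IRGSP-1.0 as the build. Since strand use and the handling of shared reads are not stated, genes that overlap, lie antisense or are duplicated may hold each other's reads. Depths, lengths and reads were worked out from the FPKM steps: with the total chosen, 100% of lengths in 400 genes came out whole (within 0.05 bases), where a typical other total gave 10.0%. Lengths and reads are lower bounds.

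The 9 libraries, a mean per group, were fitted with limma 3.58.1 (mean-dependent prior, R 4.3.3) on log2(FPKM + 1), and p-values were Benjamini-Hochberg adjusted over 20835 genes. The fold scale understates low genes. The fit was also run on simulated data in which 200 of 20835 genes were altered. With a log2 shift of 1 it found 67.0% of the altered genes and made 9 false calls. With a shift of 2 it found 94.5% and made 2 false calls. The real comparison called 3439 genes, far more than were altered in the simulation. The simulated figures therefore do not measure recovery or false calls in the real data. The design fixed beforehand named 2 higher and 2 lower identifiers, by the largest difference among Os identifiers called under both scalings without overlap, where no table pairs identifiers with names; the same was then done for each position of WT. The table of 39387 rice genes (ASM3414082v1) matched 1 identifier, so the gene lists prepared from memory were not used. The comparison, rules and lists were chosen with earlier results of these data known. Alternatives were other scalings, filters, pseudocounts, fits and libraries left out in turn.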

Additional observations from a re-analysis of the deposited data

Results flagged for a closer look

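EPlOSAG00000021416, a feature of at least 74 bases, was the only gene called between the ospid lines, and was looked at again because its difference from ospin1c ospin1d was not the same in both lines. It stood at 2.59, 2.60 and 3.48 FPKM in ospid C1, from 3, 3 and 4 reads, and was listed at 0 in all libraries of ospid C2 and of ospin1c ospin1d. In WT it was at 0, 0.827 and 1.65 FPKM. ospid C2 differed from ospid C1 by -1.95 on the log2(FPKM + 1) scale (adjusted p = 0.0150 by limma), with adjusted p of 0.196 by voom on the recovered reads and 0.000278 to 0.196 over all alternatives.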

How the results depend on the processing

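The 9 identifiers named for the comparison were chosen as large differences, called under both scalings without overlap, so their holding was likely beforehand. It says nothing about the other calls. All 258 of their values kept direction and stayed past the threshold under every alternative that gave a value. Their sizes did not hold where a group is at or near 0: with a pseudocount of 0.1 and by voom, Os08g0332100 went from 5.71 to 8.76 and 10.56, and Os01g0537250 from 8.19 to 10.51 and 11.46. Os03g0426350 and Os03g0223301 gave none with an ospin1c ospin1d library left out, since they then fell below the filter. The count of 3439 genes went to 1994 with the replicate block, 1519 for ospid C2 alone and 697 at a log2 difference of at least 1, which lowers it by construction. Leaving out each library gave 920 to 5226 as deposited and 1173 to 4606 with median-ratio scaling (1746, 1173 and 1682 without ospin1c ospin1d replicates 1, 2 and 3), which was added after seeing the data; the cause was not tested. Other alternatives stayed within 1.5 times. Between the ospid lines limma called 1 gene, with 2175 at an unadjusted p under 0.05, and the count was 0 with the replicate block, voom or a pseudocount of 0.1, 2 with quantile normalization, 9 with all 12 libraries, 15 without a filter and 0 to 10 with each library left out. These settings for the lines, apart from leaving libraries out, were added after seeing the data.

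The replicate number gave no pairing. Deviations from the group mean correlated at -0.234 to 0.0330 in the 9 pairs of libraries that share a number, and 1 of 9 libraries matched its own number best. At 1 read per library, features of few bases reach several FPKM, which limits what short identifiers show.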
